A study of Homo sapiens with 9 samples.

Results

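The lysosome, proton pump and autophagy genes described here are 44 named genes of the 58735 in the deposited table. They were chosen by gene name, with earlier results of these data known, and fall into 4 classes by their known roles. Of these genes, 11 are hydrolases and lumenal proteins and 3 are lysosomal membrane proteins. The others are 15 subunits and accessory proteins of the proton pump, and 15 autophagy factors with their transcription factors. RNA was sequenced from PANC-1, an established human pancreatic carcinoma cell line, in 3 groups of 3 libraries that the sample titles call ACSS2-KO-3, ACSS2-KO-2 and NC. ACSS2 makes acetyl-CoA from acetate in the cytosol and the nucleus. The labels give no growth condition or agent besides the knockout, and the meaning of the numbers 2 and 3 (guide, clone or pool) and of NC is not stated. The titles formed the groups, because the treatment field of the 6 knockout libraries counts up from ACSS2-KO through ACSS7-KO.

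Lysosomes are acidic compartments in which hydrolases break down proteins, lipids and glycans. The vacuolar proton pump acidifies them: its membrane sector V0 carries protons across the membrane, and its cytosolic sector V1 hydrolyses ATP to drive the transport. Autophagy delivers cytoplasm to lysosomes in double-membrane vesicles that form through the ATG proteins, and cargo receptors such as p62 tie cargo to them. TFEB and TFE3 are transcription factors that activate many of these genes through promoter motifs with a CACGTG core. Pancreatic carcinoma cells are known for high autophagy and lysosome activity, which supply them with nutrients.

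ACSS2 itself was measured at 7.19, 8.57 and 8.50 CPM (counts per 1000000 library counts, scaled between libraries) in ACSS2-KO-3, at 15.1, 14.7 and 12.4 CPM in ACSS2-KO-2, with 33.3, 30.6 and 28.3 CPM in NC. Both knockouts lay below NC in every library, by 1.92 and 1.13 on the log2 scale, and ACSS2-KO-3 lay below ACSS2-KO-2 in every library. Library totals ran from 14756572 to 17457190 counts. Between 22311 and 23183 genes were detected in each ACSS2-KO-3 library, against 24572 to 25185 in each of ACSS2-KO-2 and 24476 to 24496 in each of NC. The 6 epithelial markers of pancreatic duct and carcinoma cells summed to 5426 to 6091 CPM in ACSS2-KO-3, 4234 to 4662 CPM in ACSS2-KO-2 and 4582 to 4607 CPM in NC. Most of each sum was KRT8 and KRT18, which averaged higher in ACSS2-KO-3 than in NC, as did KRT19 and SOX9. EPCAM went the other way, with 5.42, 6.02 and 5.35 CPM in ACSS2-KO-3, against 9.11, 9.51 and 9.36 CPM in NC. In ACSS2-KO-2 it had 8.92, 8.94 and 7.53 CPM. KRT7 averaged 7.00 CPM in ACSS2-KO-3, 7.15 CPM in ACSS2-KO-2 and 7.04 CPM in NC. Vimentin, a mesenchymal marker known in this line, reached 1643 to 1752, 1416 to 1646 and 1653 to 1908 CPM in the same order. The 4 leukocyte markers summed to at most 4.93 CPM in any library, most of it CD14, with PTPRC and CD3E at 0 in ACSS2-KO-3 and NC. The endothelial, fibroblast, acinar and islet markers each summed to under 0.46 CPM in every library, with INS and GCG at 0.

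The design compares each knockout with NC and the knockouts with each other. A gene counts as called when its Benjamini-Hochberg adjusted p was under 0.05 in edgeR's quasi-likelihood test, adjusted over the 15811 genes tested. All 44 members passed the filter on low counts. Fold changes are log2 differences of the CPM level, so they are relative to all other RNA of a library, and in bulk RNA fewer cells of a kind and less RNA per cell cannot be told apart. Nothing in the labels tells whether a group's libraries are from separate cultures, so the p-values measure only how far these libraries scatter, which may be technical scatter. The 3 NC libraries serve in both comparisons with NC.

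In ACSS2-KO-3, 21 of the 44 members were higher than in NC, 9 were lower and 14 were not called. Over all tested genes 63.3% were called in this comparison, 31.2% higher and 32.1% lower. The share of members called is near that background and the share called higher is above it. The members were chosen with earlier results of these data known, so this is a description, and the difference in shares was not tested. The median log2 fold change was 0.144 over the members and -0.037 over all tested genes. In ACSS2-KO-2, 1 member was higher than in NC (SQSTM1), 2 were lower (PSAP and CTSB) and 41 were not called, in a comparison that called 6.65% of all genes, 3.81% higher and 2.84% lower. The median was -0.033 over the members and -0.003 over all genes. Between the knockouts, ACSS2-KO-3 had 22 members higher and 7 lower relative to ACSS2-KO-2, and 15 were not called, against 61.7% of all genes called, 31.2% higher and 30.5% lower. The median there was 0.225 over the members and -0.023 over all genes. By class, the calls between the knockouts were 6 higher and 2 lower among hydrolases, 2 and 1 among membrane proteins, 8 and 1 among pump genes, and 6 and 3 among autophagy factors.

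Fold changes of ACSS2-KO-3 followed the base composition of the transcripts, in the members as in all genes. Across the 44 members the Spearman correlation of the log2 fold change against NC with the GC content of the longest transcript was 0.501, and across all tested genes it was 0.495. In ACSS2-KO-2 these correlations were 0.04 and 0.001. Genes are not independent and share the same 6 libraries, so these are descriptions. Of the 11 members under 45% GC, 2 were higher and 6 lower in ACSS2-KO-3 than in NC, while of the 13 members at 55% GC or more, 9 were higher and 1 was lower. Over all tested genes, 9.87% were higher and 60.6% lower in the first of these bands, and 48.4% were higher and 12.9% lower in the second. A second fit carried offsets per library for GC content and transcript length, on 15804 genes. With these offsets 23 members were higher in ACSS2-KO-3 than in NC and 5 were lower (all genes: 35.7% higher, 24.6% lower), and the members' median was 0.185 against 0.049 over all genes. In this fit 9 of the 11 members under 45% GC were higher and 0 lower (all genes in the band: 37.9% and 27.9%). At 55% GC or more, 6 of the 13 were higher and 3 lower (all genes in the band: 35.1% and 22.7%). The Spearman correlation with GC content became -0.197 over the members and -0.015 over all genes. Between the knockouts the offsets gave 28 members higher and 4 lower in ACSS2-KO-3 (all genes: 35% higher, 22.5% lower). In ACSS2-KO-2 against NC the same 3 members were called with the same signs (all genes: 4.99% higher, 4.42% lower). The offsets treat any biological change that follows GC content or length as technical, and which of the fits is closer to the RNA in the cells was not tested.

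16 members were higher in ACSS2-KO-3 than in NC in both fits: NEU1, LAMP1, MCOLN1, all 5 V0 subunits (ATP6V0A1, ATP6V0B, ATP6V0C, ATP6V0D1 and ATP6V0E1), ATP6V1B2, ATP6V1H, ATP6AP1, SQSTM1, GABARAPL1, UVRAG, TFE3 and ATG7. 3 members were lower in both fits: CTSL, GAA and WIPI1. Over all tested genes 31.2% were higher and 32.1% lower without the offsets, and 35.7% and 24.6% with them. The share of all genes called alike in both fits was not counted. 4 members, LAMP2, ATP6V1C1, ATP6AP2 and ATG5, were lower without the offsets and higher with them. In the other 21 members at least 1 of the fits made no call, and in 9 of these neither did.

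**Figure D1:**
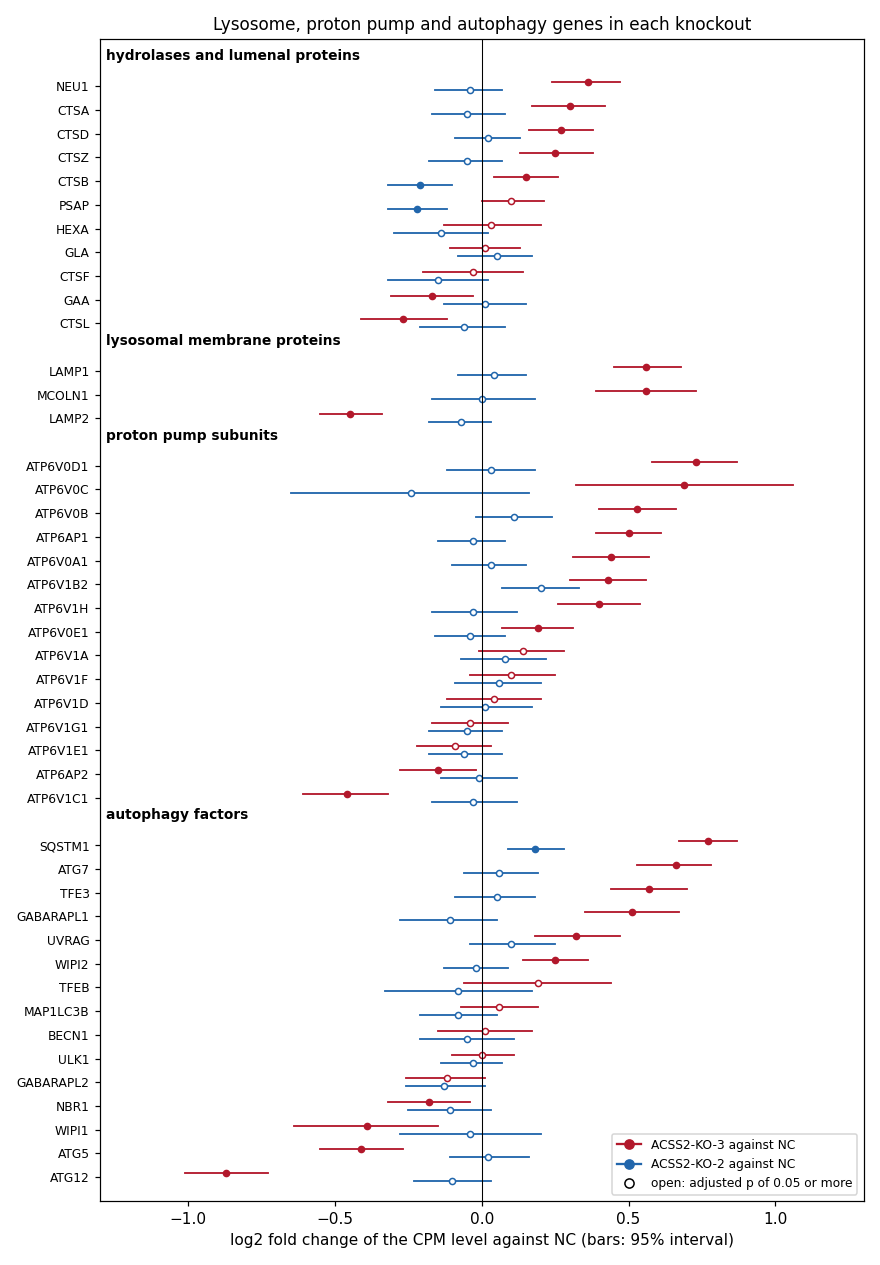
Log2 fold change of the CPM level against NC (x axis) for the 44 members, grouped by class and ordered by the ACSS2-KO-3 value, with ACSS2-KO-3 in red above ACSS2-KO-2 in blue. Bars are 95% intervals and open points were not called. The red points run from -0.87 (ATG12) to 0.77 (SQSTM1), and the blue points run from -0.24 to 0.20.

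**Figure D2:**
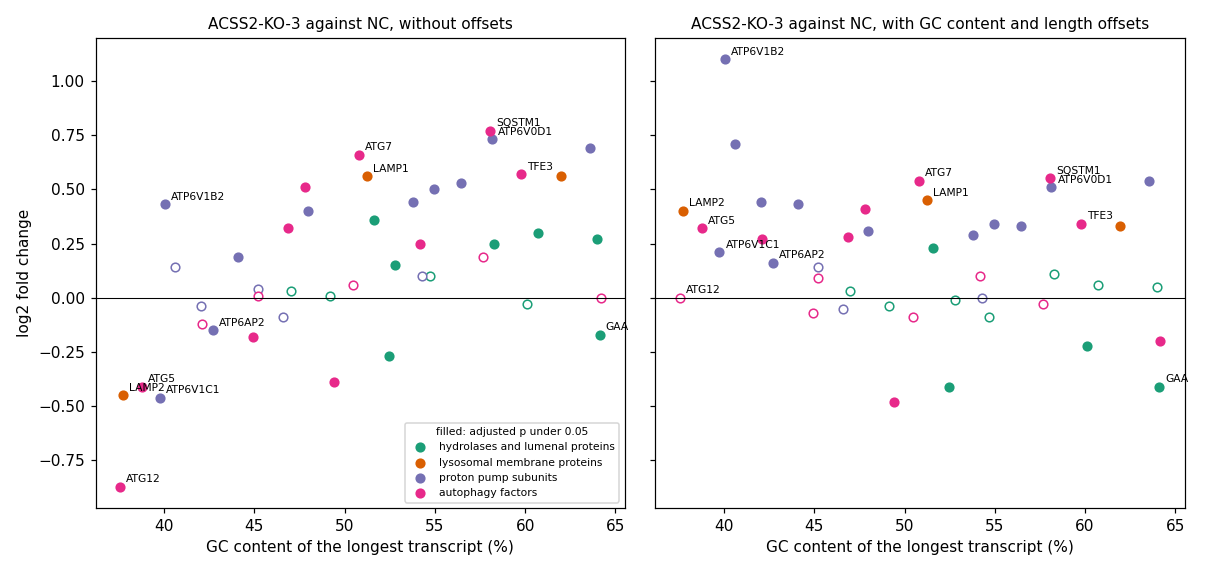
Log2 fold change of ACSS2-KO-3 against NC (y axis) and GC content of the longest transcript in percent (x axis) for the 44 members, without offsets on the left and with GC content and length offsets on the right. Filled points were called. The points climb with GC content on the left (Spearman 0.501), and on the right LAMP2, ATG5 and ATP6V1C1 lie above 0 and ATG12 lies at 0.00.

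The promoters of several members carry the CACGTG core. In RefSeq's promoter sequences (build GRCh38.p14, from 250 bases before to 50 after each start of transcription), 34 members had an entry. The members without one were CTSB, HEXA, PSAP, LAMP2, ATP6V0E1, ATP6V1A, ATP6V1B2, ATP6V1C1, ATP6V1H and UVRAG. CACGTG stood in 10 of the 34 (29.4%), against 2396 of the 27305 genes of the table (8.77%), and the longer TCACGTGA stood in 6 of 34 (17.6%), against 321 genes (1.18%). Per promoter of the same length, CACGTG was in 7.26% of all entries. Each motif is its own reverse complement, so both strands were searched at once, and every TCACGTGA holds a CACGTG. By class, CACGTG stood in 5 of 8 hydrolase genes, 2 of 2 membrane protein genes, 3 of 10 pump genes and 0 of 14 autophagy genes. A match of letters is a description and does not show that a factor binds there.

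The sequences below are the stretches around these matches, shown for members whose values in each library are given below. They are written 5′ to 3′ on the strand of the gene, with the CACGTG core or the whole TCACGTGA in capitals. They come from chr13:113297017-113297246 (LAMP1, plus strand), chr19:7522553-7522631 (MCOLN1, plus), chr16:67481181-67481246 (ATP6V0D1, minus), chr1:43974873-43974956 (ATP6V0B, plus), chr6:31862912-31862977 (NEU1, minus), chr20:45891263-45891342 (CTSA, plus), chr11:1763939-1764004 (CTSD, minus) and chr17:80101475-80101585 (GAA, plus).
LAMP1: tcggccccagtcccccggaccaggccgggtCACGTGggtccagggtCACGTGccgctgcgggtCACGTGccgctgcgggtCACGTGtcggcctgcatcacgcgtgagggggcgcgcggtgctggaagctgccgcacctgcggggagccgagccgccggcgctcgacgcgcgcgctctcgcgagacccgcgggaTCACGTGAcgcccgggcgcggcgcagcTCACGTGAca
MCOLN1: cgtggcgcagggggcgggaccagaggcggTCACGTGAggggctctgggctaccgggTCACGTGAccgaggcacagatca
ATP6V0D1: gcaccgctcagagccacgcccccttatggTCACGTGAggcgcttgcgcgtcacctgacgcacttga
ATP6V0B: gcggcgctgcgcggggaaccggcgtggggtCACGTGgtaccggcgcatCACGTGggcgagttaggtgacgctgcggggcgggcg
NEU1: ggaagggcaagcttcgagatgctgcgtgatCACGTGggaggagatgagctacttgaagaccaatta
CTSA: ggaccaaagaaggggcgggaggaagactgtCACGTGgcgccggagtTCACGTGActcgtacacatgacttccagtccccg
CTSD: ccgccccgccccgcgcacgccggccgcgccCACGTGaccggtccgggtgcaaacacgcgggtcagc
GAA: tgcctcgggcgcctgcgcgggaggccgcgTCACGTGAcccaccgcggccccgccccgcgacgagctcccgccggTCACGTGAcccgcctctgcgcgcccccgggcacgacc
LAMP1 held 6 copies of the core within its window, the 2 nearest to the start inside TCACGTGA. CTSF (2 copies) and ATP6V1G1 (1 copy, inside TCACGTGA) also matched. Of the 10 members with CACGTG, 7 were higher in ACSS2-KO-3 than in NC and 1, GAA, was lower, with a median log2 fold change of 0.328. Of the 24 members with an entry and no CACGTG, 9 were higher and 6 lower, with a median of 0.05. With the offsets these became 6 higher and 2 lower with a median of 0.279, and 10 higher and 3 lower with a median of 0.105. Over all tested genes 31.2% were higher and 32.1% lower, and at 55% GC or more 48.4% and 12.9%, without the offsets. With the offsets the shares were 35.7% and 24.6% over all tested genes, and 35.1% and 22.7% at 55% GC or more. Most of the 10 members with CACGTG had GC contents from 56.5% to 64.1%. Those without it included ATG12 and ATG5 at 37.5% and 38.8%, but also ULK1 at 64.2%. The counts are over members chosen by name. The difference between the 2 sets, and the part of GC content in it, were not tested.

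Among the 11 hydrolases and lumenal proteins, 5 were higher in ACSS2-KO-3 than in NC without the offsets (NEU1, CTSA, CTSD, CTSZ and CTSB) and 2 were lower (CTSL and GAA). With the offsets 1 was higher (NEU1) and 3 were lower (CTSL, GAA and CTSF). Over all tested genes 31.2% were higher and 32.1% lower, or 35.7% and 24.6% with the offsets. NEU1, the lysosomal sialidase (ENSG00000204386, chr6:31857659-31862906, minus strand), had 101.0, 98.3 and 98.7 CPM in ACSS2-KO-3, 79.1, 74.8 and 71.4 CPM in ACSS2-KO-2, with 77.7, 77.7 and 77.1 CPM in NC. Its ACSS2-KO-3 libraries lay above all 6 others, while ACSS2-KO-2 and NC overlapped. The log2 fold change in ACSS2-KO-3 was 0.36 (SE 0.0565, edgeR adjusted p = 3.61e-06), and with the offsets it was 0.23 (adjusted p = 0.00036).

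CTSA, the protective protein that forms a complex with NEU1 (ENSG00000064601, chr20:45890144-45898820, plus strand), had 143.0, 124.9 and 144.9 CPM in ACSS2-KO-3, 112.2, 108.9 and 104.0 CPM in ACSS2-KO-2, with 106.4, 112.4 and 116.6 CPM in NC. CTSD, the aspartic protease cathepsin D (ENSG00000117984, chr11:1752752-1764573, minus strand), had 429.6, 406.5 and 429.4 CPM in ACSS2-KO-3, 360.6, 378.9 and 323.6 CPM in ACSS2-KO-2, with 359.3, 343.1 and 345.5 CPM in NC. In both genes ACSS2-KO-3 lay above every other library. Without the offsets the log2 fold changes against NC were 0.30 for CTSA and 0.27 for CTSD (edgeR adjusted p = 0.00011 and 8.74e-05). With them the values were 0.06 and 0.05 and neither was called (adjusted p = 0.328 and 0.336). CTSZ, the carboxypeptidase cathepsin Z, moved the same way, with 0.25 without and 0.11 with the offsets (adjusted p = 0.000532 and 0.0642). The exons of CTSD share 1304 of 3126 bases with a same-strand gene that had 150 counts in all 9 libraries, against 53822 for CTSD.

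PSAP, the precursor of the saposins that help hydrolases reach sphingolipids (ENSG00000197746, chr10:71816298-71851375, minus strand), was the member with the highest level. It had 1433, 1318 and 1456 CPM in ACSS2-KO-3, 1095, 1178 and 1094 CPM in ACSS2-KO-2, with 1287, 1284 and 1343 CPM in NC. All 3 ACSS2-KO-2 libraries lay below all NC libraries, whereas ACSS2-KO-3 overlapped NC. In ACSS2-KO-2 it was lower than in NC by 0.22 on the log2 scale (SE 0.0492, edgeR adjusted p = 0.005), and by 0.20 with the offsets (adjusted p = 0.00161). Without the third NC library the adjusted p was 0.0537. In ACSS2-KO-3 the difference from NC was 0.10 without the offsets (adjusted p = 0.0665) and -0.09 with them (adjusted p = 0.0807). With another scaling (RLE), DESeq2 or limma-voom it was called higher there, with adjusted p = 0.0396, 0.0396 and 0.044, and it was also called higher with the third NC library, the second ACSS2-KO-2 library or the second ACSS2-KO-3 library left out (adjusted p = 0.0408, 0.0424 and 0.0116).

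CTSB, the cysteine protease cathepsin B (ENSG00000164733), had 327.8, 299.8 and 337.5 CPM in ACSS2-KO-3, 256.0, 255.7 and 240.7 CPM in ACSS2-KO-2, with 287.2, 293.6 and 289.0 CPM in NC. The 3 groups did not overlap, with ACSS2-KO-3 above NC and ACSS2-KO-2 below it. The log2 fold change against NC was 0.15 in ACSS2-KO-3 (SE 0.0519, edgeR adjusted p = 0.014), and ACSS2-KO-2 stood at -0.21 (SE 0.0522, adjusted p = 0.0115). With the offsets the ACSS2-KO-3 value was -0.01 (adjusted p = 0.889) and the ACSS2-KO-2 value stayed at -0.21 (adjusted p = 0.00152). The ACSS2-KO-2 call was lost without the second NC library (adjusted p = 0.0701) or the third ACSS2-KO-2 library (adjusted p = 0.0884), and the ACSS2-KO-3 call was lost without the third ACSS2-KO-3 library (adjusted p = 0.0621).

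CTSL, the cysteine protease cathepsin L, fell in ACSS2-KO-3, with 31.5, 30.2 and 32.6 CPM against 35.8, 38.1 and 39.4 CPM and no overlap (log2 fold change -0.27, and -0.41 with the offsets). GAA, the acid glucosidase that breaks down lysosomal glycogen, had 45.2, 40.1 and 42.9 CPM in ACSS2-KO-3, against 47.2, 48.7 and 48.3 CPM in NC. Its log2 fold change was -0.17 (edgeR adjusted p = 0.0324) and -0.41 with the offsets (adjusted p = 9e-07). The GAA call without the offsets was also lost with RLE scaling, with no filter on low counts, in DESeq2, and with the second or the third NC library, the second ACSS2-KO-2 library, or the second or the third ACSS2-KO-3 library left out. CTSF, GLA and HEXA, a cathepsin and the enzymes that cleave terminal galactose and hexosamine from glycolipids, were at -0.03, 0.01 and 0.03 relative to NC in ACSS2-KO-3 without the offsets and were not called, and with them CTSF was at -0.22 (adjusted p = 0.0136).

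The 3 lysosomal membrane proteins were all called in ACSS2-KO-3 against NC in both fits. Without the offsets 2 were higher and 1 was lower (all genes: 31.2% higher, 32.1% lower). With them all 3 were higher (all genes: 35.7% higher, 24.6% lower). None of the 3 was called in ACSS2-KO-2 against NC by edgeR, DESeq2 or limma-voom, and 0 of the 3 had an unadjusted p under 0.05. LAMP1, an abundant glycoprotein that lines the lysosomal membrane (ENSG00000185896, chr13:113297241-113323672, plus strand), had 289.6, 268.7 and 296.6 CPM in ACSS2-KO-3, 195.1, 205.3 and 193.0 CPM in ACSS2-KO-2, with 177.7, 197.5 and 202.6 CPM in NC. ACSS2-KO-3 lay above all 6 other libraries, and ACSS2-KO-2 overlapped NC. The ACSS2-KO-3 level was 148% of NC, a log2 fold change of 0.56 (SE 0.0561, edgeR adjusted p = 1.38e-09), or 0.45 with the offsets (adjusted p = 5.2e-10).

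MCOLN1, the calcium channel that releases lysosomal calcium (ENSG00000090674, chr19:7522626-7534009, plus strand), had 27.1, 27.9 and 28.7 CPM in ACSS2-KO-3, 18.5, 19.7 and 18.9 CPM in ACSS2-KO-2, with 19.5, 19.8 and 17.7 CPM in NC. Its 3 ACSS2-KO-3 libraries lay together and above all others. The log2 fold change in ACSS2-KO-3 was 0.56 (SE 0.0824, edgeR adjusted p = 1.36e-06), and with the offsets it was 0.33 (adjusted p = 0.00067), a smaller value by over 1.5 times.

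LAMP2, the partner glycoprotein of LAMP1, which also takes part in the fusion of autophagosomes with lysosomes (ENSG00000005893, chrX:120427827-120469365, minus strand), had 164.0, 171.5 and 175.0 CPM in ACSS2-KO-3, 223.2, 215.9 and 221.9 CPM in ACSS2-KO-2, with 237.8, 224.1 and 233.5 CPM in NC. The 3 groups did not overlap and ACSS2-KO-3 was the lowest. The log2 fold change of ACSS2-KO-3 against NC was -0.45 (SE 0.0506, edgeR adjusted p = 1.55e-08) without the offsets and 0.40 (SE 0.0472, adjusted p = 4.06e-09) with them. Its transcript has a GC content of 37.7%, against 51.2% for LAMP1 and 62.0% for MCOLN1. All tested genes under 45% GC had a median log2 fold change of -0.492 in ACSS2-KO-3 against NC without the offsets. In ACSS2-KO-2, LAMP2 was at -0.07 relative to NC and was not called.

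Of the 15 proton pump genes, 8 were higher and 2 lower in ACSS2-KO-3 than in NC (all genes: 31.2% higher, 32.1% lower). With the offsets 12 were higher and 0 lower (all genes: 35.7% higher, 24.6% lower). ATP6V1A, ATP6V1C1, ATP6V1G1 and ATP6AP2, with GC contents from 39.7% to 42.7%, were called higher only with the offsets. The median log2 fold change of the 15 genes was 0.192 without and 0.332 with the offsets. In ACSS2-KO-2 against NC, 0 of the 15 were called by edgeR, DESeq2 or limma-voom, and 1, ATP6V1B2, had an unadjusted p under 0.05 in each. The division of the pump into sectors was made after the values were seen and is descriptive. All 5 V0 subunits among the members were higher in ACSS2-KO-3 than in NC in both fits, with log2 fold changes from 0.192 to 0.726 without and 0.290 to 0.541 with the offsets. Relative to ACSS2-KO-2 they were also all higher in ACSS2-KO-3, in both fits. Of the 8 V1 subunits, 2 were higher and 1 was lower without the offsets, and 5 were higher and 0 lower with them.

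Pump genes outside the 44 were mixed in direction, within the V0 sector as well. Of 14 tested pump subunits and assembly factors on a wider list, 4 were higher and 6 lower in ACSS2-KO-3 than in NC. These are 28.6% and 42.9%, against 31.2% and 32.1% of all genes, with a median log2 fold change of -0.162. With the offsets 4 were higher and 5 lower (28.6% and 35.7%, against 35.7% and 24.6%), with a median of -0.232. TCIRG1, the V0 subunit a3, had 112.0, 106.0 and 98.0 CPM in ACSS2-KO-3, against 113.8, 114.0 and 118.8 CPM in NC (log2 fold change -0.13, edgeR adjusted p = 0.0482, or -0.38 with the offsets, adjusted p = 8.32e-08). The V1 subunits ATP6V1E2 and ATP6V1G2 were at -0.59 and -1.47, or -0.47 and -1.53 with the offsets, all called. ATP6V1G2 had few counts, 10, 2 and 3 in ACSS2-KO-3 and 16, 17 and 11 in NC, so its values are uncertain. The V0 subunits ATP6V0A2 and ATP6V0E2 were at 0.20 and 0.58, or 0.46 and 0.63 with the offsets, all called. These 5 genes were chosen after their values were seen.

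ATP6V0D1, the V0 subunit d (ENSG00000159720, chr16:67438014-67481237, minus strand), had 63.5, 60.7 and 70.3 CPM in ACSS2-KO-3, 43.2, 39.8 and 36.7 CPM in ACSS2-KO-2, with 39.1, 39.2 and 39.2 CPM in NC. ACSS2-KO-3 stood at 165% of NC, with a log2 fold change of 0.73 (SE 0.0713, edgeR adjusted p = 1.12e-09), or 0.51 with the offsets (adjusted p = 1.88e-08). ATP6V0B, a proteolipid of the V0 rotor ring (ENSG00000117410, chr1:43974487-43978295, plus strand), had 95.2, 99.3 and 102.1 CPM in ACSS2-KO-3, 71.5, 78.0 and 72.2 CPM in ACSS2-KO-2, with 75.4, 64.9 and 65.4 CPM in NC. Its log2 fold change in ACSS2-KO-3 was 0.53 (SE 0.0638, adjusted p = 4.79e-08), or 0.33 with the offsets (adjusted p = 1.42e-05). In both genes the ACSS2-KO-3 libraries lay above the other 6 and ACSS2-KO-2 overlapped NC.

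ATP6V0C, the main proteolipid of the ring (ENSG00000185883, chr16:2513870-2520218, plus strand), was listed low, at 6.67, 4.62 and 5.28 CPM in ACSS2-KO-3, 2.57, 2.96 and 3.13 CPM in ACSS2-KO-2, with 3.37, 3.04 and 3.82 CPM in NC. ACSS2-KO-3 did not overlap the other groups. The log2 fold change was 0.69 (SE 0.180, edgeR adjusted p = 0.00162), or 0.54 with the offsets (adjusted p = 0.01). These values are uncertain, because 862 of its 1498 exon bases are shared with a same-strand protein-coding gene that had 0 counts, and the sources used here do not say how reads over shared exons were counted.

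ATP6V0A1, the large subunit a1 that forms part of the proton path, was at 0.44 in ACSS2-KO-3, or 0.29 with the offsets. ATP6V0E1, the small subunit e1, was at 0.19, and at 0.43 with the offsets. ATP6AP1, an accessory protein that takes part in pump assembly, had 328.6, 295.1 and 330.2 CPM in ACSS2-KO-3, against 221.2, 222.6 and 230.9 CPM in NC (log2 fold change 0.50, or 0.34 with the offsets). ATP6AP2, the prorenin receptor and the other accessory protein, was at -0.15 without the offsets (edgeR adjusted p = 0.0412) and at 0.16 with them (adjusted p = 0.0231). The first of these ATP6AP2 calls was also lost with RLE scaling, with no filter on low counts, in DESeq2, and with the first or second NC library, the second or the third ACSS2-KO-2 library, or the second or the third ACSS2-KO-3 library left out.

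In the V1 sector, ATP6V1B2, the nucleotide-binding subunit B, had 57.8, 53.6 and 59.7 CPM in ACSS2-KO-3, 48.0, 49.6 and 48.3 CPM in ACSS2-KO-2, with 42.2, 43.4 and 41.3 CPM in NC. The 3 groups did not overlap. Its log2 fold change against NC was 0.43 in ACSS2-KO-3 (edgeR adjusted p = 1.74e-06), or 1.10 with the offsets. In ACSS2-KO-2 it was 0.20 (adjusted p = 0.0643), with adjusted p = 0.043 under RLE scaling, 0.0352 in a fit of NC and ACSS2-KO-2 alone and 0.0455 without the second ACSS2-KO-3 library.

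ATP6V1A, the catalytic subunit, was at 0.14 in ACSS2-KO-3 (edgeR adjusted p = 0.087) and at 0.71 with the offsets (adjusted p = 1.72e-11). It was also called higher without the second ACSS2-KO-3 library (adjusted p = 0.0325) or the first NC library (adjusted p = 0.0239). ATP6V1H, the regulatory subunit H, was at 0.40, or 0.31 with the offsets. ATP6V1C1, the subunit C that links the sectors, was lower without the offsets (59.7, 70.8 and 59.2 CPM in ACSS2-KO-3, against 89.0, 85.1 and 87.5 CPM in NC, log2 fold change -0.46) and higher with them (0.21, adjusted p = 0.00162). ATP6V1G1, a stalk subunit, was at -0.04 without and 0.44 with the offsets. ATP6V1D, ATP6V1E1 and ATP6V1F, parts of the rotor and the stalks, were not called in either fit, although ATP6V1F was called higher without the first ACSS2-KO-3 library (adjusted p = 0.0438).

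Of the 15 autophagy factors, 6 were higher and 4 lower in ACSS2-KO-3 than in NC (all genes: 31.2% higher, 32.1% lower). With the offsets 7 were higher and 2 lower (all genes: 35.7% higher, 24.6% lower). SQSTM1, which encodes the cargo receptor p62 (ENSG00000161011, chr5:179806398-179838078, plus strand), had 774.8, 778.4 and 822.3 CPM in ACSS2-KO-3, 524.3, 525.5 and 530.5 CPM in ACSS2-KO-2, with 447.0, 459.1 and 484.4 CPM in NC. The 3 groups did not overlap, in the order ACSS2-KO-3, ACSS2-KO-2, NC from high to low. ACSS2-KO-3 stood at 171% of NC, with a log2 fold change of 0.77 (SE 0.0480, edgeR adjusted p = 1.44e-13), or 0.55 with the offsets (adjusted p = 4.07e-13). ACSS2-KO-2 stood at 114% of NC, with a log2 fold change of 0.18 (SE 0.0480, adjusted p = 0.0163), or 0.20 with the offsets (adjusted p = 0.00207). The difference between the knockouts was 0.59 (adjusted p = 3.63e-11), or 0.36 with the offsets (adjusted p = 9.41e-09). The ACSS2-KO-2 call was lost without the first or second NC library (adjusted p = 0.0728 and 0.0758) and without the second or the third ACSS2-KO-2 library (adjusted p = 0.0636 and 0.0642). SQSTM1 shares 1582 of 7654 exon bases with MRNIP on the opposite strand, which had 5461 counts in the 9 libraries, against 85008 for SQSTM1.

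NBR1, the other cargo receptor, had 75.1, 75.0 and 78.8 CPM in ACSS2-KO-3, against 85.5, 80.6 and 92.8 CPM in NC, a log2 fold change of -0.18 (edgeR adjusted p = 0.0257) that was -0.07 and not called with the offsets. The first of these calls was also lost in DESeq2 and with the third NC library or the first or second ACSS2-KO-3 library left out.

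Of the 3 conjugation factors, 1 was higher and 2 were lower in ACSS2-KO-3 than in NC without the offsets (all genes: 31.2% higher, 32.1% lower). With them 2 were higher and 0 lower (all genes: 35.7% higher, 24.6% lower). ATG7, the enzyme that activates ATG12 and the ATG8 proteins for conjugation (ENSG00000197548, chr3:11272309-11557665, plus strand), had 93.1, 91.4 and 101.8 CPM in ACSS2-KO-3, 59.8, 66.0 and 64.3 CPM in ACSS2-KO-2, with 62.0, 59.7 and 59.8 CPM in NC. ACSS2-KO-3 lay above the other 6 libraries, with a log2 fold change against NC of 0.66 (SE 0.0613, edgeR adjusted p = 4.29e-10), or 0.54 with the offsets (adjusted p = 4.1e-10). ATG7 shares 1596 of 8833 exon bases with VGLL4 on the opposite strand, which had 6950 counts in the 9 libraries, against 10447 for ATG7. Of the VGLL4 counts, 2560 were in ACSS2-KO-3, 2136 in ACSS2-KO-2 and 2254 in NC.

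ATG12, the small protein that is joined to ATG5 (ENSG00000145782, chr5:115828200-115841858, minus strand), had 30.5, 34.1 and 33.9 CPM in ACSS2-KO-3, 57.3, 56.3 and 54.5 CPM in ACSS2-KO-2, with 63.3, 59.0 and 58.0 CPM in NC. ACSS2-KO-3 stood at 54.7% of NC without the offsets, a log2 fold change of -0.87 (SE 0.0681, edgeR adjusted p = 1.36e-11), whereas with the offsets the difference was 0.00 (SE 0.0613, adjusted p = 0.971). ATG5 was at -0.41 without and 0.32 with the offsets, called in both. ATG12 and ATG5 have GC contents of 37.5% and 38.8%, and ATG7 has 50.8%.

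The ATG8 proteins coat the autophagosome membrane and bind cargo receptors. GABARAPL1 had 32.9, 34.0 and 36.8 CPM in ACSS2-KO-3, 22.7, 23.3 and 21.2 CPM in ACSS2-KO-2, with 24.6, 22.9 and 25.1 CPM in NC, with ACSS2-KO-3 above all others (log2 fold change against NC 0.51, or 0.41 with the offsets). GABARAPL2 was at -0.12 and not called without the offsets, and at 0.27 with them (edgeR adjusted p = 0.000488). MAP1LC3B, which encodes LC3B, was at 0.06 without and -0.09 with the offsets, and was called in neither. The 95% interval of the MAP1LC3B difference without the offsets ran from -0.07 to 0.19 on the log2 scale.

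Among the factors that start autophagosome formation, UVRAG, a subunit of a lipid kinase complex, was higher in ACSS2-KO-3 than in NC (log2 fold change 0.32, or 0.28 with the offsets). BECN1, the Beclin 1 subunit of that complex, was at 0.01 and was not called in either fit. ULK1, the initiating kinase, was at 0.00 without the offsets and at -0.20 with them (edgeR adjusted p = 0.000339). The lipid-binding WIPI2 was at 0.25 and was not called with the offsets (0.10), and its relative WIPI1, at 8.69 to 9.05 CPM in ACSS2-KO-3 and 10.6 to 12.9 CPM in NC, was lower in both fits (-0.39 and -0.48).

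The transcription factors TFEB and TFE3 differed in level. TFEB (ENSG00000112561, chr6:41683978-41736259, minus strand) had 10.1, 9.73 and 9.19 CPM in ACSS2-KO-3, 8.52, 8.09 and 7.53 CPM in ACSS2-KO-2, with 7.74, 8.67 and 9.12 CPM in NC. Although every ACSS2-KO-3 library was above every NC library, the log2 fold change of 0.19 (SE 0.122, edgeR adjusted p = 0.186) was not called, and with the offsets it was -0.03. TFE3 (ENSG00000068323, chrX:49028726-49043486, minus strand) had 101.4, 97.9 and 107.3 CPM in ACSS2-KO-3, 68.1, 73.6 and 71.5 CPM in ACSS2-KO-2, with 62.5, 69.3 and 74.5 CPM in NC. Its log2 fold change in ACSS2-KO-3 was 0.57 (SE 0.0643, adjusted p = 1.38e-08), or 0.34 with the offsets (adjusted p = 3.3e-06). ACSS2-KO-2 overlapped NC in both genes. The activity of both factors depends on their phosphorylation and place in the cell, which RNA levels do not measure.

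**Figure D3:**
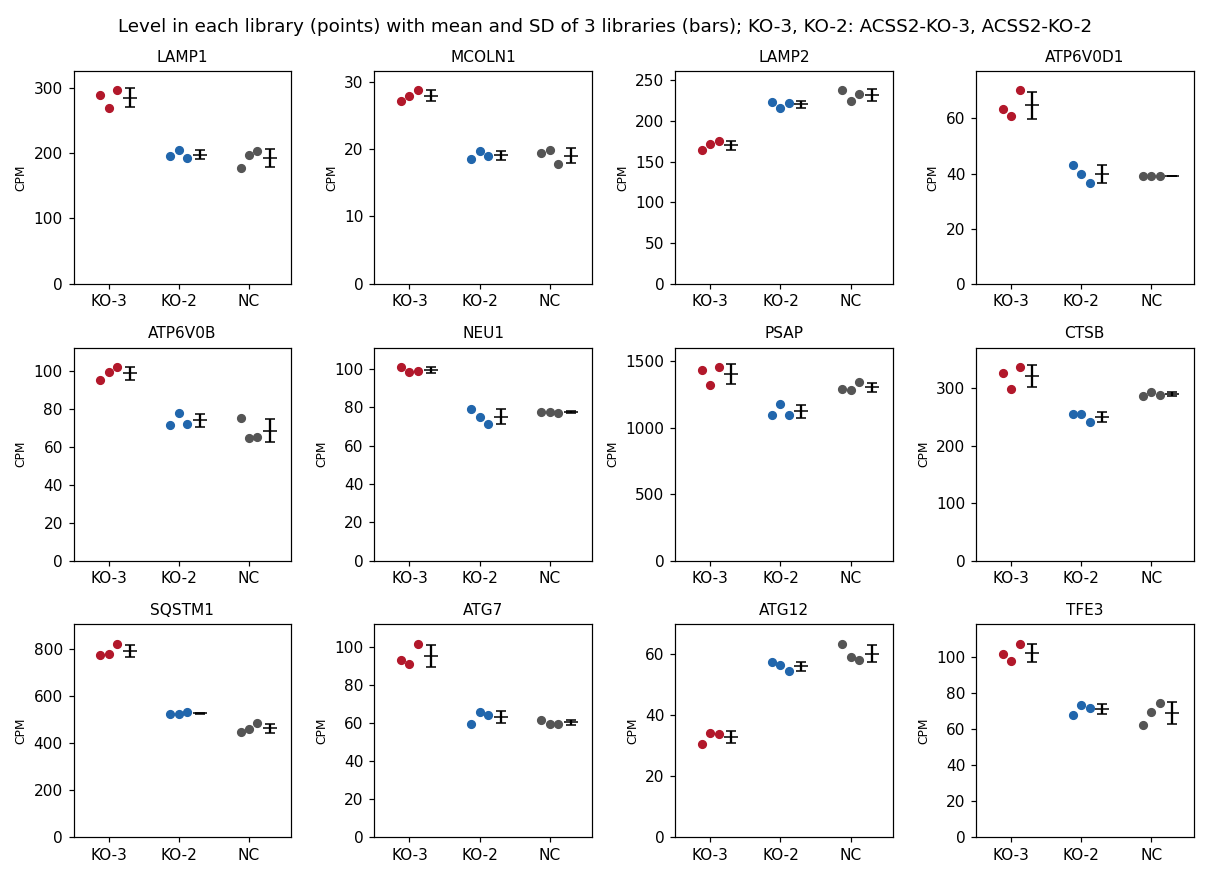
CPM in each library (points) for 12 members, with ACSS2-KO-3, ACSS2-KO-2 and NC from left to right, and the mean and SD of the 3 libraries of a group (bar beside the points). SQSTM1 has its 3 groups apart, ATG12 and LAMP2 are lowest in ACSS2-KO-3, and PSAP and CTSB are lowest in ACSS2-KO-2. Levels are without the GC content and length offsets.

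Levels were also compared between members per kilobase of exons. In NC, PSAP was the highest at 403 ± 10.4 CPM per kilobase (SD, n = 3), followed by CTSD at 111.7 ± 2.79, ATP6V0E1 at 76.1 ± 4.08, ATP6V1F at 64.6 ± 2.84 and SQSTM1 at 60.6 ± 2.49. ATP6V1F and SQSTM1 did not lie apart by more than their spread. TFEB was the lowest at 1.51 ± 0.125, and TFE3 stood at 16.1 ± 1.41. In ACSS2-KO-3, SQSTM1 stood at 103.5 ± 3.46 CPM per kilobase, above ATP6V0E1 at 86.9 ± 2.06 and ATP6V1F at 69.3 ± 5.64. The V0 subunits did not share a level: per kilobase in NC, ATP6V0E1 stood at 76.1, ATP6V0B at 19.4, ATP6V0A1 at 4.89, ATP6V0D1 at 4.77 and ATP6V0C at 2.28. The exon length counts every annotated exon of a gene, so a gene with many rarely used exons is set low on this scale.

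**Figure D4:**
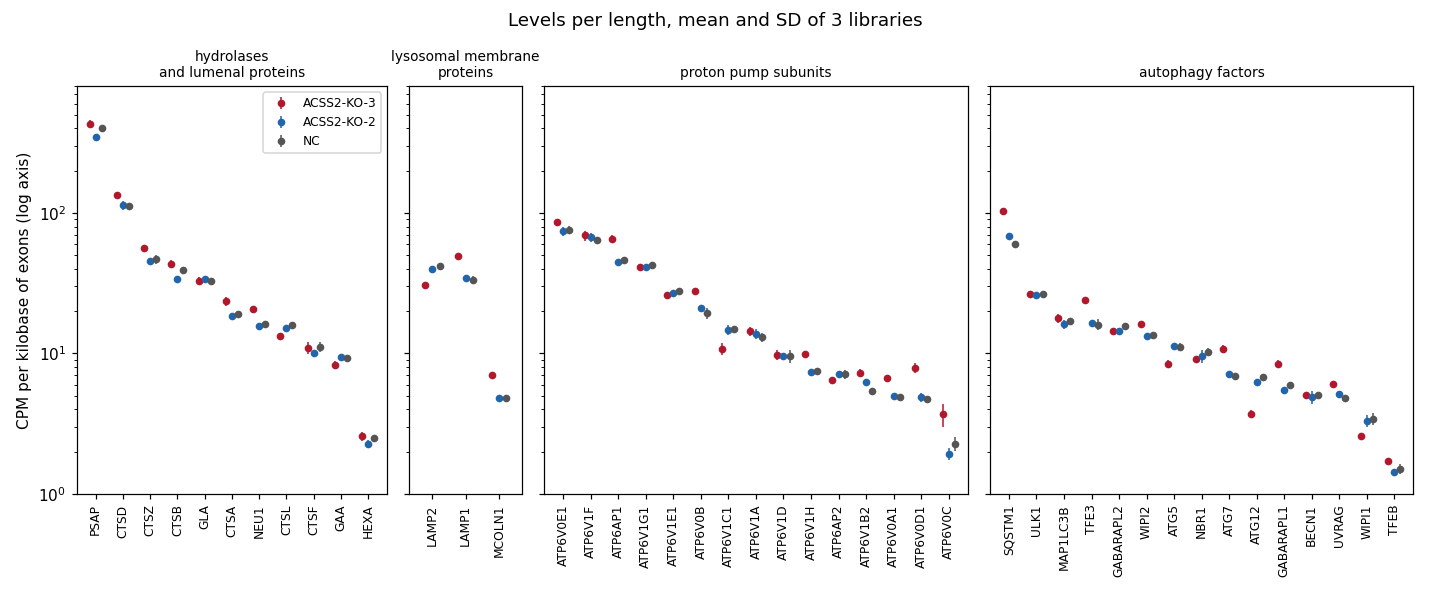
CPM per kilobase of exons (log axis) for the 44 members, as mean and SD of 3 libraries in ACSS2-KO-3 (red), ACSS2-KO-2 (blue) and NC (grey), ordered in each class by the NC level. The levels in NC span from 1.51 (TFEB) to 403 (PSAP), and SQSTM1 is the autophagy factor with the highest level in all 3 groups.

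Summed over all 44 members, the levels were 6189 ± 220.3 CPM in ACSS2-KO-3, 5127 ± 124 CPM in ACSS2-KO-2 and 5320.0 ± 73.3 CPM in NC (SD, n = 3). The hydrolases and lumenal proteins summed to 2710.0 ± 129.4 CPM in ACSS2-KO-3, 2222 ± 90.4 CPM in ACSS2-KO-2 and 2453 ± 39.5 CPM in NC, with PSAP the largest part. The autophagy factors summed to 1755 ± 54.2 CPM in ACSS2-KO-3, 1414 ± 21.8 CPM in ACSS2-KO-2 and 1371 ± 33.8 CPM in NC, with SQSTM1 the largest part. The pump genes summed to 1241 ± 31.4, 1055 ± 18.3 and 1053 ± 28.0 CPM in the same group order. These sums follow the members with high levels, are without the offsets and were not tested.

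Other genes of these pathways were taken from a list of 120, of which 114 were tested. In ACSS2-KO-3 41 were higher and 35 lower than in NC (52 and 26 with the offsets), and in ACSS2-KO-2 5 were higher and 3 lower (6 and 6 with the offsets). Between the knockouts, 47 were higher and 30 lower in ACSS2-KO-3 (41.2% and 26.3%, against 31.2% and 30.5%). With the offsets 51 were higher and 18 lower (44.7% and 15.8%, against 35% and 22.5%). The median log2 fold change of the list in ACSS2-KO-3 against NC was 0.004, or 0.114 with the offsets (all genes: -0.037, or 0.049 with the offsets).

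Among the called genes of that list, the falls with the largest fold change in ACSS2-KO-3 without the offsets were those of RB1CC1, TAX1BP1 and DMXL2. RB1CC1, the scaffold of the ULK1 kinase complex, had 10.1, 14.9 and 15.4 CPM in ACSS2-KO-3, 81.9, 88.5 and 96.3 CPM in ACSS2-KO-2, with 88.5, 87.9 and 80.1 CPM in NC (log2 fold change against NC -2.66, edgeR adjusted p = 6.02e-18, or -1.75 with the offsets). TAX1BP1, a cargo receptor, had 40.7, 53.2 and 51.5 CPM in ACSS2-KO-3, 180.1, 177.2 and 182.1 CPM in ACSS2-KO-2, with 187.3, 173.8 and 173.8 CPM in NC (-1.88, or -1.97 with the offsets). DMXL2, which takes part in pump assembly, had 14.4, 20.8 and 18.1 CPM in ACSS2-KO-3, 54.6, 54.8 and 69.3 CPM in ACSS2-KO-2, with 55.3, 65.0 and 61.3 CPM in NC (-1.76, or -1.14 with the offsets). In each of these 3 genes ACSS2-KO-3 lay far below the other libraries and ACSS2-KO-2 overlapped NC.

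The rises with the largest fold change in ACSS2-KO-3 among the called genes of the list, without the offsets, were those of SMPD1, ATG4D and ACP2. With the offsets other genes exceeded them, among them IGF2R, the mannose 6-phosphate receptor that sorts hydrolases to lysosomes, at 0.74 (0.73 without), and VMA21, a pump assembly factor, at 0.69 (-0.23 without), both named after their values were seen. SMPD1, the acid sphingomyelinase, had 29.3, 26.4 and 29.7 CPM in ACSS2-KO-3, 19.2, 22.8 and 19.8 CPM in ACSS2-KO-2, with 14.5, 17.5 and 15.5 CPM in NC. Its log2 fold change against NC was 0.85 in ACSS2-KO-3 (0.62 with the offsets) and 0.38 in ACSS2-KO-2 (edgeR adjusted p = 0.0136, 0.39 with the offsets). ATG4D, a protease that processes ATG8 proteins, was at 0.77 in ACSS2-KO-3 (0.57 with the offsets) and 0.42 in ACSS2-KO-2 (0.43 with the offsets). ACP2, the lysosomal acid phosphatase, was at 0.74 in ACSS2-KO-3 (0.55 with the offsets) and 0.29 in ACSS2-KO-2 (0.31 with the offsets), all called. Because both knockouts share the NC libraries, these values are given side by side.

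In ACSS2-KO-2 the falls with the largest fold change among the called genes of the list were those of CTSH and HGSNAT, each at -0.40 against NC, and VMP1, a membrane protein needed for autophagosome formation, at -0.21. Genes that were not called lay lower, down to GABARAP at -0.88 (edgeR adjusted p = 0.128). In ACSS2-KO-3, VMP1 was at -0.61 without and 0.16 with the offsets, called in both. CTSH, the aminopeptidase cathepsin H, had 42.5, 40.9 and 41.0 CPM in ACSS2-KO-2, against 55.1, 54.6 and 54.4 CPM in NC. HGSNAT, an acetyltransferase of the lysosomal membrane that uses acetyl-CoA from the cytosol to break down heparan sulfate, had 19.5, 20.2 and 18.4 CPM in ACSS2-KO-2, against 26.3, 26.3 and 23.9 CPM in NC. The groups did not overlap in either gene, and both calls held with the offsets (CTSH -0.37, HGSNAT -0.42). In ACSS2-KO-3, CTSH was at -0.12 and HGSNAT at -0.17 against NC, not called, and with the offsets both were lower (-0.27 and -0.26). MCOLN3, a relative of MCOLN1, had 5.84, 3.29 and 4.46 CPM in ACSS2-KO-2, against 1.81, 2.72 and 1.79 CPM in NC (log2 fold change 1.12, edgeR adjusted p = 0.00769), and 1.18, 0.729 and 0.274 CPM in ACSS2-KO-3 (-1.51 against NC). With the offsets these differences were 1.13 and -1.11, both called. MCOLN3 thus lay above NC in every ACSS2-KO-2 library and below it in every ACSS2-KO-3 library.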

How the data were processed

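Raw counts per gene of 9 libraries and the exon length of each gene in bases were taken as deposited. The authors used cutadapt 1.9, HISAT2 2.2.1, StringTie 2.1.6, DESeq2 and edgeR with GRCh38, per the submitters' processing notes, which give no counting or strand settings. RNA was selected with oligo(dT) and sequenced as strand-marked paired-end libraries, per the labels' protocols. Gene identifiers and positions matched GENCODE 29.

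Counts were scaled with TMM, filtered with filterByExpr (minimum count 10, total 15) and fitted in edgeR 4.0.16 (R 4.3.3) as 1 quasi-likelihood model of the 3 groups with 6 residual degrees of freedom. Tests were 2-sided. The fit was tested on simulated data. Alternatives were RLE scaling, no filter, DESeq2 1.42.0, limma-voom (limma 3.58.1), a replicate block, only the compared groups, each library left out, and offsets smoothed with splines (5 degrees of freedom each) on GC content and log2 length of the longest transcript. Totals of 14756572 to 17457190 counts let a count of 0 allow up to 3 counts, 0.172 to 0.203 CPM, for counting error only. Replicate numbers did not pair libraries. Replicates differed by more than sampling noise.

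The members, classes and lists were chosen with earlier results of these data known. Values of each library are given for TFEB, TFE3, SQSTM1, LAMP1 and CTSD, for the 3 called members of each class with the largest change in ACSS2-KO-3 and the 2 in ACSS2-KO-2, and, on the list of other pathway genes, the 3 largest rises and falls among the called genes without the offsets were named. Other members whose values are given by library were chosen after their values were seen.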

Additional observations from a re-analysis of the deposited data

Results flagged for a closer look

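CTSB differed between the knockouts, which moved to opposite sides of NC. It averaged 321.7 ± 19.6 CPM in ACSS2-KO-3, 250.8 ± 8.72 CPM in ACSS2-KO-2 and 289.9 ± 3.28 CPM in NC (SD, n = 3). The difference between ACSS2-KO-3 and ACSS2-KO-2 was 0.36 on the log2 scale (edgeR adjusted p = 1.08e-06), and 0.20 with the GC content and length offsets (adjusted p = 0.000243). With the offsets ACSS2-KO-3 lay at -0.01 against NC, so that the opposite directions did not remain, while the lower level in ACSS2-KO-2 did. Fewer genes were detected in the ACSS2-KO-3 libraries than in the others, and the part of this in the result was not tested.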

How the results depend on the processing

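Of the 44 members, 40 kept their call in ACSS2-KO-2 against NC under every alternative, and 25 did in ACSS2-KO-3 against NC, or 37 when the offsets were left aside. The GC content and length offsets changed the direction of 9 members that were called in at least 1 of the fits in ACSS2-KO-3 against NC, to -0.01 in CTSB, 0.40 in LAMP2, 0.21 in ATP6V1C1, 0.44 in ATP6V1G1, 0.16 in ATP6AP2, 0.27 in GABARAPL2, -0.20 in ULK1, 0.32 in ATG5 and 0.00 in ATG12. In ACSS2-KO-3 against ACSS2-KO-2 they changed the direction of 6 such members, to 0.47 in LAMP2, 0.26 in ATP6V1C1, 0.16 in ATP6AP2, -0.13 in ULK1, 0.27 in ATG5 and 0.10 in ATG12. In ACSS2-KO-3 against NC, members called in neither fit, such as PSAP and MAP1LC3B, also changed sign. The offsets moved the members' median in ACSS2-KO-3 against NC to 0.185. The cause was not tested. Leaving out 1 library at a time gave 1 to 4 members called in ACSS2-KO-2 against NC (1 without the second NC or the third ACSS2-KO-2 library), 27 to 30 in ACSS2-KO-3 against NC and 28 to 30 between the knockouts. Over all genes in ACSS2-KO-2 against NC it gave 666 to 1295 calls, the fewest without the second ACSS2-KO-2 library, against 1052. The median in ACSS2-KO-3 against NC was 0.107 to 0.187 in these fits.

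The residuals of libraries with the same replicate number correlated from -0.041 to 0.056, and 0 of 9 pairs exceeded 0.1. With a replicate block 3, 30 and 29 members were called in ACSS2-KO-2 and ACSS2-KO-3, each against NC, and between the knockouts, as without it, and 1113, 10022 and 9745 genes in all. Depth limits ATP6V0C, WIPI1 and TFEB most, the members with the lowest counts.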
